A study of Mus musculus with 6 samples.

Results

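The genes described here belong to the cell's answer to protein folding stress in the endoplasmic reticulum (ER) and to shortage of amino acids. They were 38 genes taken by name from the array annotation, of which 37 had a probe, out of 18589 genes tested; Gars had no probe, and Ppp1r15a was found under its older name Myd116. They fell into 13 genes of ER folding and degradation, with the factors Xbp1 and Atf6, and 24 Atf4-type genes, meaning Atf4 and related factors, stress outputs and genes of amino acid synthesis, transport and charging. The mouse line HACA, a skin carcinoma line, carried 1 of 3 short hairpin RNAs: shLoxl2, against the lysyl oxidase-like enzyme Loxl2; shSnail, against the transcription factor Snai1; or shGFP, against a protein mouse cells do not have, as the control. Total RNA of a silenced line and of shGFP cells shared each of 6 Agilent arrays with 2 dyes. Each of the 2 shLoxl2 replicates was hybridised once with the silenced RNA in Cy3 and once in Cy5, and each of the 2 shSnail replicates once, in Cy5. The labels give no age, passage, drug or induction. They do not say whether a line is 1 clone or whether replicates came from separate cultures. The p-values thus measure the spread between these samples, which may be technical, and for shSnail also that between 2 arrays of 1 shLoxl2 replicate.

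In the unfolded protein response, unfolded chains in the ER lumen draw the chaperone Hspa5 (BiP) away from the membrane sensors: Atf6, which is cut and enters the nucleus, Ern1, which splices Xbp1 mRNA, and the kinase Eif2ak3. Eif2ak3, and Eif2ak4, a sensor of uncharged tRNA, phosphorylate a translation initiation factor, and general protein synthesis slows while Atf4 mRNA is translated more. Atf4 then binds with C/EBP-family partners at genes that make serine, asparagine and cysteine precursors, import amino acids and charge tRNAs, and at Ddit3, Trib3 and Chac1, which act in prolonged stress. Secretory and fast-growing tumour cells commonly depend on both arms. Much of Atf4, Atf6 and Xbp1 activity is set by translation, cleavage or splicing, which mRNA ratios do not measure.

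Some promoters of these genes hold the letters by which the 2 arms are known. A few are shown because the same genes carry the values that follow. RefSeq windows of 300 bases, from 250 before to 50 after the start, on GRCm38.p6, were at hand for 34 of the 38 genes and not for Atf6, Cth, Slc7a5 and Wars. The ER stress element was searched on both strands as CCAAT, 9 bases of any kind, then CCACG. It was in 6 of the 12 ER genes with a window (Hspa5, Hsp90b1, Dnajc3, Calr, Canx and Pdia6), in 0 of 22 Atf4-type genes and in 0.137% of 27025 genes. The sense strand is printed 5′ to 3′, with the element in capitals. The stretches are chr2:34771995-34772073 (plus strand) for Hspa5, chr10:86705503-86705686 (minus) for Hsp90b1, which holds the element once on each strand, chr11:50325770-50325848 (minus) for Canx and chr14:118937797-118937875 (plus) for Dnajc3.
Hspa5: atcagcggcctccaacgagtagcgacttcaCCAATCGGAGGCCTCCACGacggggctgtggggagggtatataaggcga
Hsp90b1: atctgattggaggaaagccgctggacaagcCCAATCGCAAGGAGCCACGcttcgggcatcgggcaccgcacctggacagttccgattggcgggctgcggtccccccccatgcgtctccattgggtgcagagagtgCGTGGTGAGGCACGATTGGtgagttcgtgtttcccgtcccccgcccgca
Canx: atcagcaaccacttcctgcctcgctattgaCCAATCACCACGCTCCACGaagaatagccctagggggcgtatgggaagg
Dnajc3: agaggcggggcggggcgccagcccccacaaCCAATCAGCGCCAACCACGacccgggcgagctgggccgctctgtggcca

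The core of the C/EBP-ATF composite element, at which Atf4 dimers bind, was searched on both strands as TGATGNAA and no gene of the 34 held both motifs. It was in 8 of the 22 Atf4-type genes with a window (Trib3, Chac1, Nupr1, Vldlr, Asns, Slc7a11, Aars and Gars), in 1 of the 12 ER genes (Herpud1) and in 4.51% of all genes. A match describes letters only and is no proof of binding. Of the Atf4-type genes shown with the core in capitals, Chac1 lies at chr2:119351019-119351086 (plus), Trib3 at chr2:152344028-152344057 (minus, past the start), Slc7a11 at chr3:50443623-50443709 (minus, with the core once on each strand) and Asns at chr6:7693210-7693262 (minus).
Chac1: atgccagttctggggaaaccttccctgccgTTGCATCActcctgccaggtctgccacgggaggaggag
Trib3: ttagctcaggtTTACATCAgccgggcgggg
Slc7a11: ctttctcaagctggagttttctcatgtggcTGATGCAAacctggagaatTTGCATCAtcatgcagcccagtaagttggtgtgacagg
Asns: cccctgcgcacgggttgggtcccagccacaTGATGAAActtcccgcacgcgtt

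Signals were well above background for 85.4% to 92.4% of probes in Cy5 and 55.9% to 74.9% in Cy3, and for 36 of the 37 genes in both channels of every array; Vldlr passed in each channel on 2 of the 4 shLoxl2 arrays. The dye effect, which the dye-swapped shLoxl2 arrays give, varied over all probes with an SD of 0.46 (log2), and within a shLoxl2 pair the arrays, turned to silenced over control, correlated at 0.02 and -0.03. The pair means correlated at 0.68 and the shSnail arrays at 0.88. Over the 37 genes the median size of the dye effect was 0.13, with Vldlr at 1.07 and Slc7a11 at -0.56. The targeted genes did not check the labels. Loxl2 was at 1.38, -1.30, 1.04 and -0.68 on the shLoxl2 arrays, turning with the dye (0.11, adjusted p = 0.590), and neither channel of a shSnail array held a Snai1 signal well above background. Of the markers on the array, 8 of 11 for keratinocytes, 1 of 7 for fibroblasts, 3 of 6 for leukocytes and 0 of 5 for endothelium were above background in both channels of every array. All shLoxl2 arrays were scanned on 1 day and both shSnail arrays on another.

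Values are log2 ratios of silenced over shGFP RNA, and array values are given in the order shLoxl2 replicate 1 in Cy3 and in Cy5, replicate 2 in Cy3 and in Cy5, then shSnail replicates 1 and 2. A gene passed where limma's adjusted p, over all tested probes, was below 0.05. shGFP RNA was counted as 1 control sample, and its own spread was not estimated. The sample titles do not give the number of shGFP preparations. Over all genes, 14.2% passed in shLoxl2 against shGFP, 15.3% in shSnail against shGFP and 12.9% in shSnail against shLoxl2.

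**Figure D1:**
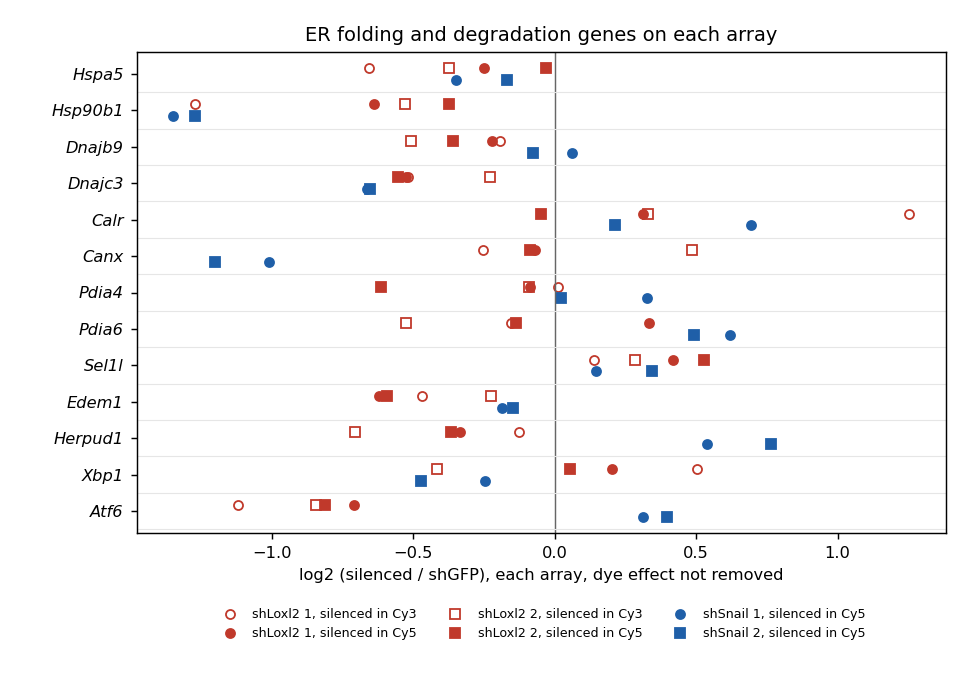
Log2 ratio of silenced over shGFP RNA (horizontal axis) for the 13 ER folding and degradation genes on each of the 6 arrays, before any dye removal; red is shLoxl2, blue is shSnail, open points have the silenced RNA in Cy3. For Atf6 and Herpud1 the red points lie left of 0 and the blue points right of 0, and for Canx the blue points lie apart at -1.01 and -1.20.

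The ER folding and degradation genes that passed in shLoxl2 cells were all lower than in shGFP cells. Of the 13 ER genes, 4 fell (Atf6, Hsp90b1, Edem1 and Dnajc3), 0 rose and 9 did not pass, beside 5.89% of all genes that fell and 8.33% that rose. Their median was -0.32, beside -0.01 over all genes. It was -0.21 without shLoxl2 replicate 2, -0.18 without background subtraction and -0.19 with median centring in place of loess. With median centring, 3 of the 13 fell and 1 rose, and Dnajc3 (limma adjusted p = 0.0770) and Edem1 (0.05004) did not pass.

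Hsp90b1 (probe chr10:86121961-86122020; all probe positions are on build mm8, as the files give them), the Hsp90-family chaperone of the ER lumen, stood at -1.27, -0.64, -0.53 and -0.37 on the shLoxl2 arrays and at -1.35 and -1.27 on the shSnail arrays. All 6 arrays were below 0, and both shSnail arrays were about as low as the lowest shLoxl2 array. The fitted value was -0.70 (SE 0.15, 1.63-fold lower, adjusted p = 0.0320) in shLoxl2 and -1.51 (SE 0.24, 2.85-fold lower, adjusted p = 0.0115) in shSnail. Its promoter is the one shown with the ER stress element on both strands.

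Canx (probe between 50139727 and 50140508 on chromosome 11), the membrane lectin that holds glycoproteins until they fold, gave -0.25, -0.07, 0.48 and -0.09 in shLoxl2 and -1.01 and -1.20 in shSnail. The shLoxl2 arrays lay on both sides of 0, whereas both shSnail arrays lay below all of them. The fitted value was 0.02 (SE 0.13, adjusted p = 0.946) in shLoxl2 and -1.01 (SE 0.23, 2.01-fold lower, adjusted p = 0.0341) in shSnail.

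Dnajc3 (chr14:117857692-117857750), a co-chaperone of Hspa5 that also restrains Eif2ak3, was at -0.52, -0.52, -0.23 and -0.55 in shLoxl2 and at -0.66 and -0.65 in shSnail. Every array was below 0. The value was -0.46 (SE 0.11, adjusted p = 0.0449) in shLoxl2 and -0.58 (SE 0.16, adjusted p = 0.0572) in shSnail, where it did not pass.

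Hspa5 (chr2:34598119-34598178) itself, the readout most used for ER stress, was at -0.66, -0.25, -0.37 and -0.03 in shLoxl2 and at -0.35 and -0.17 in shSnail. All values were below 0, and the groups overlapped. It did not pass in shLoxl2 (-0.33, SE 0.12, adjusted p = 0.149) or in shSnail (-0.45, SE 0.17, adjusted p = 0.134); with median centring in place of loess it passed in both, at -0.51 (adjusted p = 0.0377) and -0.62 (adjusted p = 0.0317).

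Edem1 (chr6:108824703-108824762), which hands misfolded glycoproteins to degradation, was at -0.47, -0.62, -0.23 and -0.59 in shLoxl2 and at -0.19 and -0.15 in shSnail. Both shSnail arrays lay closer to 0 than any shLoxl2 array. The fitted values were -0.48 (SE 0.11, adjusted p = 0.0394) and -0.04 (SE 0.15, adjusted p = 0.902).

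Herpud1 (chr8:97284346-97284405), a membrane component of the degradation complex, gave -0.13, -0.34, -0.71 and -0.37 in shLoxl2 and 0.54 and 0.77 in shSnail. The groups lay on opposite sides of 0, although neither silencing passed on its own (-0.38, adjusted p = 0.121, and 0.62, adjusted p = 0.0962).

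Atf6 (chr1:172544223-172544282), the membrane-bound factor that drives chaperone genes once cut, was at -1.12, -0.71, -0.84 and -0.81 in shLoxl2 and at 0.31 and 0.40 in shSnail. Its fall in shLoxl2 had the smallest adjusted p of the ER genes (-0.87, SE 0.11, 1.83-fold lower, adjusted p = 0.00686), and shSnail was at 0.24 (SE 0.16, adjusted p = 0.355). Xbp1 (chr11:5425782-5425841), the other factor, was at 0.50, 0.20, -0.42 and 0.05 in shLoxl2 and at -0.25 and -0.47 in shSnail. Its shLoxl2 arrays fell on both sides of 0 (0.09, SE 0.16, adjusted p = 0.764), and shSnail was at -0.40 (SE 0.27, adjusted p = 0.370); without shLoxl2 replicate 1 the shSnail value was -0.60 and passed (adjusted p = 0.0435).

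The 9 ER genes that did not pass in shLoxl2 ranged from -0.38 (Herpud1) to 0.46 (Calr), with adjusted p between 0.118 and 0.946. Pdia4, Pdia6, Sel1l, Dnajb9 and Calr passed in neither silencing nor in the difference. In shSnail, 2 of the 13 ER genes fell (Hsp90b1 and Canx) and 0 rose, beside 9.21% and 6.07% of all genes. The 11 others ranged from -0.58 (Dnajc3) to 0.78 (Calr), with adjusted p between 0.0572 and 0.909. The median in shSnail was -0.04, equal at this precision to that of all genes (-0.04). It turned above 0, at most to 0.05, in the authors' deposited value table and with either shLoxl2 replicate or shSnail replicate 2 left out. With median centring in place of loess it was -0.36, beside 0.09 over all genes. With the scanner software's log ratios it was -0.005, beside -0.27 over all genes. Of the 6 ER genes with the ER stress element, 2 fell in shLoxl2 (Hsp90b1 and Dnajc3) and 2 in shSnail (Hsp90b1 and Canx). Over all genes, 5.89% fell in shLoxl2 and 9.21% in shSnail. The values of the 6 ran from -0.70 to 0.46 and from -1.51 to 0.78.

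**Figure D2:**
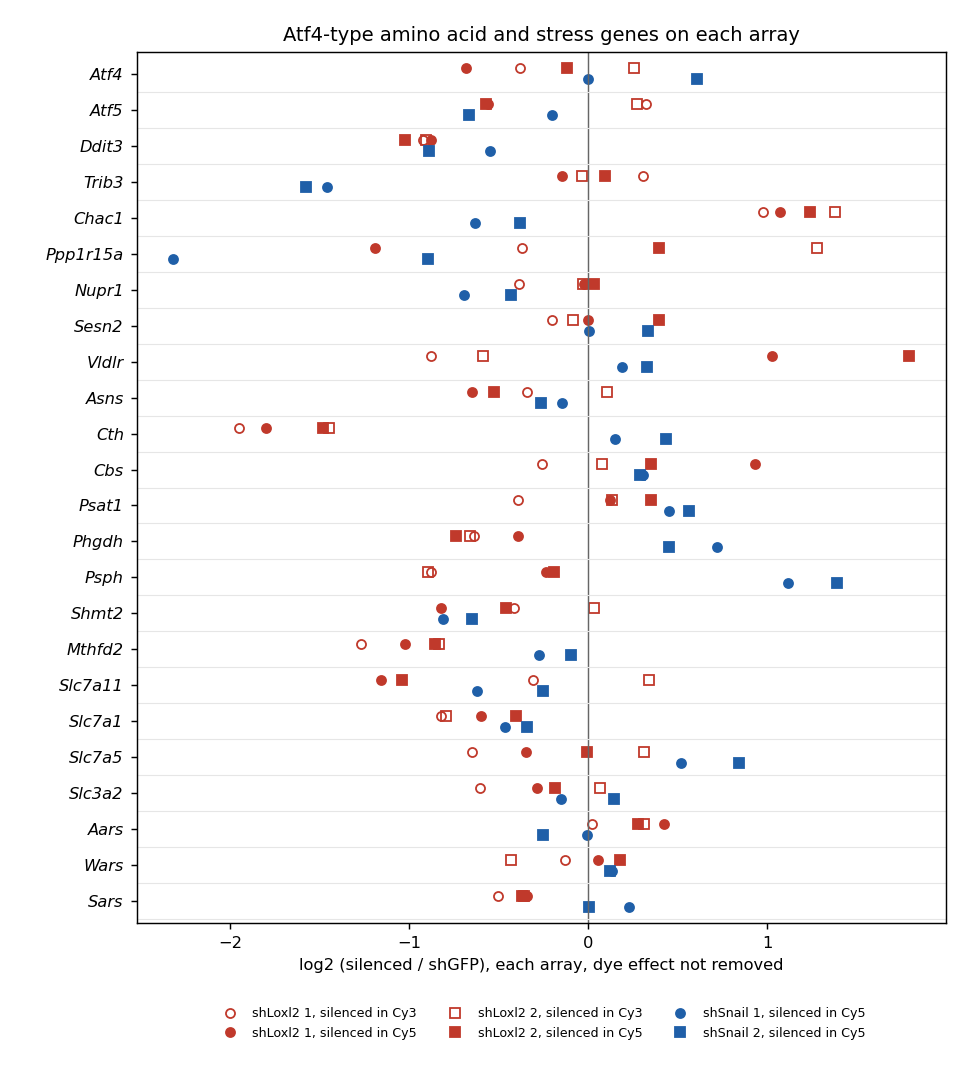
Log2 ratio of silenced over shGFP RNA (horizontal axis) for the 24 Atf4-type genes on each of the 6 arrays, before any dye removal, with the same symbols as for the ER genes. Cth, Phgdh and Psph are left of 0 on every shLoxl2 array and right of 0 on both shSnail arrays, Chac1 is the reverse, and Ppp1r15a spreads from -2.32 to 1.28.

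Among the Atf4-type genes, enzymes of amino acid and folate metabolism, 1 carrier and the factor Ddit3 fell in shLoxl2 cells. Of the 24, 6 fell (Cth, Mthfd2, Ddit3, Slc7a1, Phgdh and Psph), 1 rose (Chac1) and 17 did not pass; the median was -0.20, beside -0.01 over all genes, and it was -0.10 without shLoxl2 replicate 1 and -0.47 without replicate 2. With the ER genes, 10 of 37 fell and 1 rose, or 29.7% called beside the 14.2% of all genes. By role, 4 of 8 synthesis enzymes, 1 of 4 transporters and 1 of 3 factors fell, and 0 of 3 tRNA synthetases passed.

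Atf4 (chr15:80083464-80083523), the factor the group is named for, was at -0.38, -0.68, 0.25 and -0.12 in shLoxl2 and at 0.00 and 0.61 in shSnail. The shLoxl2 replicates did not lie on 1 side (pair means -0.53 and 0.07), and Atf4 passed in neither silencing (-0.23, SE 0.21, adjusted p = 0.510; 0.47, SE 0.29, adjusted p = 0.328). Ddit3 (probe between 126696655 and 126698275 on chromosome 10), the factor CHOP of prolonged stress, gave -0.92, -0.88, -0.91 and -1.03 in shLoxl2 and -0.55 and -0.89 in shSnail. All 6 arrays were low and the groups overlapped. It fell in both, by 0.94 (SE 0.13, 1.91-fold, adjusted p = 0.00864) in shLoxl2 and by 0.70 (SE 0.17, 1.62-fold, adjusted p = 0.0379) in shSnail, against the same shGFP control.

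Cth (chr3:157829996-157830055), which releases cysteine from cystathionine, gave -1.95, -1.80, -1.45 and -1.48 in shLoxl2 and 0.15 and 0.43 in shSnail. Its shLoxl2 value of -1.67 (SE 0.15, 3.18-fold lower, adjusted p = 0.00281) was the lowest of all 37 genes, and shSnail was at 0.26 (SE 0.21, adjusted p = 0.461). Cbs, the enzyme just before Cth, did not pass in either (0.27, adjusted p = 0.168; -0.07, adjusted p = 0.868).

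Of the 3 serine pathway enzymes, Phgdh and Psph lay on opposite sides of 0 in the silencings. Phgdh (chr3:98398580-98398639), which opens the pathway, was at -0.64, -0.39, -0.66 and -0.74 in shLoxl2 and at 0.72 and 0.45 in shSnail. The shLoxl2 fall was -0.61 (SE 0.12, adjusted p = 0.0293), with 1 shGFP spot saturated, and shSnail was at 0.54 (SE 0.18, adjusted p = 0.0899). Psph (chr5:130080296-130080355), which closes it, was at -0.88, -0.24, -0.89 and -0.19 in shLoxl2 and at 1.12 and 1.39 in shSnail. The shLoxl2 arrays split by dye, with both Cy3 arrays lower, and all were below 0. Psph fell in shLoxl2 (-0.55, SE 0.12, adjusted p = 0.0342) and was the only one of the 37 genes that rose in shSnail (0.92, SE 0.16, 1.89-fold, adjusted p = 0.0145). Psat1, the step between them, passed in neither, at 0.05 (adjusted p = 0.828) and 0.32 (adjusted p = 0.328).

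Mthfd2 (chr6:83271369-83271428), a mitochondrial folate enzyme that uses carbon from serine, gave -1.27, -1.03, -0.83 and -0.86 in shLoxl2 and -0.28 and -0.10 in shSnail. Both shSnail arrays lay above every shLoxl2 array. The fitted values were -0.997 (SE 0.13, adjusted p = 0.00742) and -0.24 (SE 0.19, adjusted p = 0.437). Asns and Shmt2, the other enzymes, did not pass in either silencing. Asns was saturated in the silenced channel of 2 shLoxl2 arrays and 1 shSnail array. Its shGFP channel was saturated on 2 shLoxl2 arrays, so its ratios may be too close to 0.

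Slc7a1 (chr5:148637821-148637854), a carrier of arginine and lysine, was at -0.82, -0.60, -0.79 and -0.40 in shLoxl2 and at -0.46 and -0.34 in shSnail. All arrays were low, and the groups overlapped. It fell in shLoxl2 (-0.66, SE 0.11, adjusted p = 0.0160) and was at -0.56 (SE 0.15, adjusted p = 0.0563) in shSnail. A dimmer probe of the same gene gave -0.17 (adjusted p = 0.362) in shLoxl2, so the fall rests on the brighter probe. In shSnail the dimmer probe had the opposite sign, at 0.09 and 0.18 on the arrays (fitted 0.26, limma adjusted p = 0.299). Slc7a11, the cystine carrier whose promoter is shown, was at -0.54 in shLoxl2 and did not pass (adjusted p = 0.0717), and neither did Slc7a5 and Slc3a2.

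Chac1 (chr2:119045649-119045708), which breaks down glutathione and is used as a readout of Atf4, was at 0.98, 1.07, 1.38 and 1.24 in shLoxl2 and at -0.64 and -0.38 in shSnail. It was the only one of the 37 genes that rose in shLoxl2 (1.17, SE 0.13, 2.24-fold, adjusted p = 0.00544), although its silenced channel was saturated on both Cy5 arrays, so that 2 of the 4 arrays measured it below saturation. In shSnail it was at -0.50 (SE 0.19, adjusted p = 0.128). Trib3 (chr2:152029060-152029119), a pseudokinase induced by Atf4 and Ddit3, gave 0.31, -0.15, -0.04 and 0.09 in shLoxl2 and -1.46 and -1.58 in shSnail. The shLoxl2 arrays lay around 0 (0.05, SE 0.11, adjusted p = 0.781), and shSnail fell by 1.44 (SE 0.18, 2.71-fold, adjusted p = 0.00631), the smallest adjusted p of the 37 genes there. Chac1 and Trib3 both hold the composite core shown.

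The other stress outputs did not pass in either silencing. Ppp1r15a, which restores translation by dephosphorylating the initiation factor, had the widest spread, at -0.37, -1.19, 1.28 and 0.39 in shLoxl2 and at -2.32 and -0.90 in shSnail. The shLoxl2 pairs had opposite signs and the shSnail replicates were far apart, so the fitted -1.18 in shSnail (SE 0.67) had an adjusted p of 0.286. Vldlr followed the dye in shLoxl2 (-0.88, 1.03, -0.59 and 1.79), and its second probe had the opposite sign in shSnail (0.68 beside -0.81).

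In shSnail, 2 of the 24 Atf4-type genes fell (Trib3 and Ddit3), 1 rose (Psph) and 21 did not pass. The 21 ranged from -1.18 (Ppp1r15a) to 0.68 (Slc7a5), and the adjusted p nearest to the threshold was 0.0520, for Nupr1. The median was -0.05, beside -0.04 over all genes, and it turned to 0.01 without background subtraction. With median centring in place of loess it was -0.20, beside 0.09 over all genes. With the scanner software's log ratios it was -0.06, beside -0.27 over all genes. With the ER genes, 5 of 37 or 13.5% were called, near the 15.3% of all genes. Of the 8 measured genes with the composite core, 1 rose in shLoxl2 (Chac1) and 1 fell in shSnail (Trib3), and no other passed in either. These counts are near the shares of all genes that passed, 14.2% in shLoxl2 and 15.3% in shSnail.

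**Figure D3:**
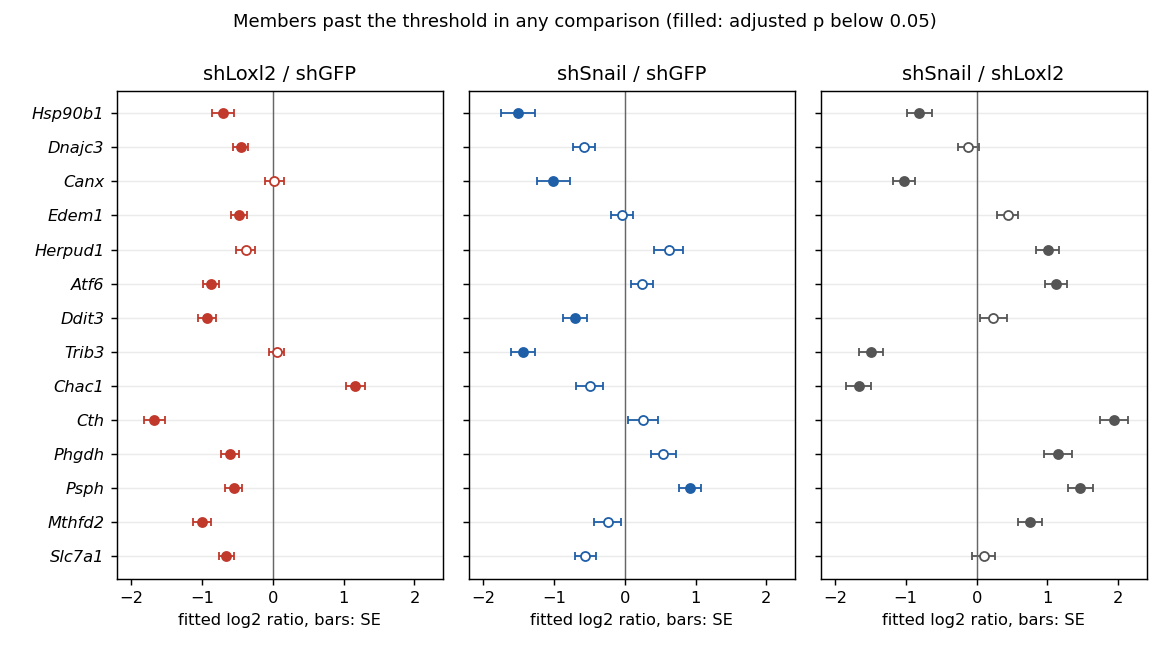
Fitted log2 ratios with their SE for the 14 genes that passed in any comparison, in shLoxl2 over shGFP, shSnail over shGFP and shSnail over shLoxl2; filled points have an adjusted p below 0.05. Hsp90b1 and Ddit3 are filled below 0 in both silencings, and Psph is filled below 0 in shLoxl2 and above 0 in shSnail; the Chac1 point in the last panel comes from saturated shLoxl2 spots.

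With shLoxl2 replicate 1 left out, 1 ER gene and 4 Atf4-type genes were called in shLoxl2, and with replicate 2 left out 2 and 5; Dnajc3 and Edem1 lost their calls with any 1 replicate of either group left out, Phgdh and Psph without either shLoxl2 replicate, and Hsp90b1 and Slc7a1 without shLoxl2 replicate 1. With either shSnail replicate left out, 0 of the 37 genes and 2 of all genes were called in shSnail.

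The shSnail values depend on how the dye effect is taken off, since both shSnail arrays have the silenced RNA in Cy5. Removed in full, as above, it left 5 of the 37 genes called, beside 2840 of all 18589 genes. The shSnail values of all tested probes then correlated at -0.42 with the dye effect. Scaled by the slope of the shSnail ratios on it (0.453), 12 were called, 3 higher and 9 lower, beside 4659 of all genes. With no correction, 16 were called, 6 higher and 10 lower, beside 5874 of all genes. The calls thus rose over all genes too. Hsp90b1, Canx, Ddit3, Trib3 and Psph passed under all 3. Genes that passed with no correction and not after full removal included Herpud1 at 0.65 (adjusted p = 0.0149), Phgdh at 0.58 (adjusted p = 0.0180), Dnajc3 at -0.66 (adjusted p = 0.00800) and Ppp1r15a at -1.61 (adjusted p = 0.0439).

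**Figure D4:**
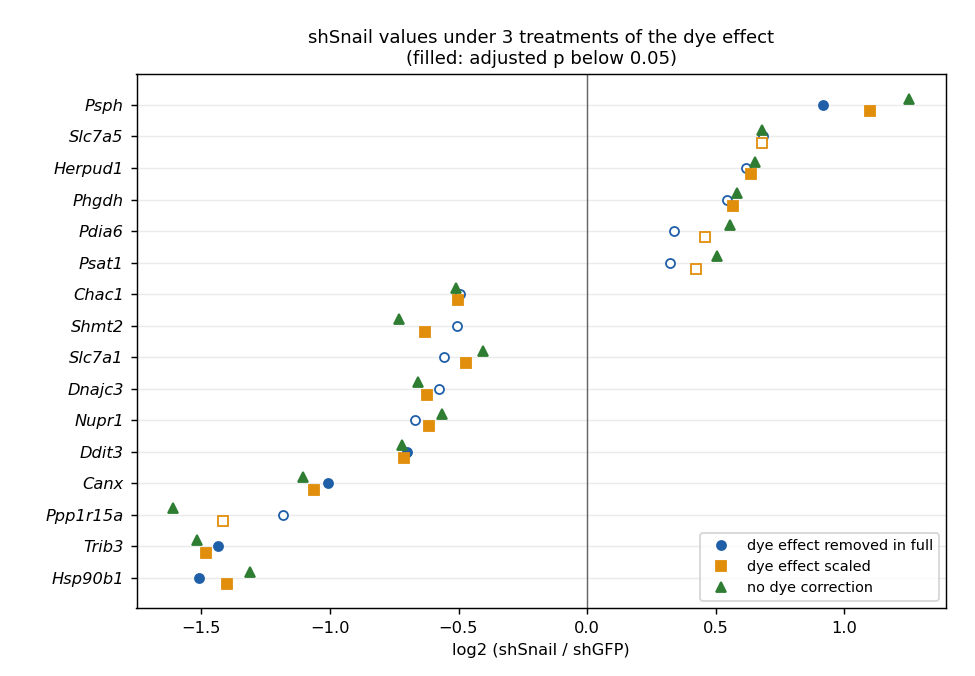
Log2 ratio of shSnail over shGFP RNA for the 16 genes called under any of 3 treatments of the dye effect: removed in full (circles), scaled (squares) or not corrected (triangles); filled symbols have an adjusted p below 0.05. No gene changes sign between treatments, and filled circles are found for Hsp90b1, Trib3, Canx, Ddit3 and Psph alone.

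The silencings were set against each other on the 4 arrays that carried silenced RNA labelled Cy5. A dye effect of equal size would cancel there. The shSnail ratios followed the dye effect of the shLoxl2 arrays with a slope of 0.453, so part of it may remain in the differences. Of the 37 genes, 6 were higher in shSnail (Cth, Psph, Phgdh, Atf6, Herpud1 and Mthfd2) and 4 lower (Chac1, Trib3, Canx and Hsp90b1), or 27.0% beside 12.9% of all genes; 4.35% of all genes were higher and 8.56% lower. The median was 0.28 in the 13 ER genes and 0.18 in the 24 Atf4-type genes, beside -0.04 over all genes, and with median centring in place of loess both turned below 0, to -0.11 and -0.07, while the median of all genes moved to 0.11.

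The 4 Atf4-type genes that stood higher in shSnail than in shLoxl2 were all synthesis enzymes. Cth was 3.82-fold higher (1.93, SE 0.20, adjusted p = 0.0164), Psph 2.76-fold (1.47, SE 0.17, adjusted p = 0.0173) and Phgdh 2.22-fold (1.15, SE 0.20, adjusted p = 0.0296). Mthfd2 was at 0.76 (SE 0.17, adjusted p = 0.0471), so 4 of the 8 enzymes were higher and 0 lower. Of the ER genes, Atf6 was 2.17-fold higher (SE 0.15 on the log2 scale, adjusted p = 0.0199) and Herpud1 at 1.004 (SE 0.16, adjusted p = 0.0261).

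The 2 Atf4-type genes that stood lower were stress outputs. Chac1 was saturated in the silenced channel of both shLoxl2 arrays used here, so its difference is a bound: at least 2.91-fold higher in shLoxl2, from the normalized Cy5 signals of the silenced RNA, whose dye bias was not tested (fitted ratio difference -1.66, adjusted p = 0.0170). Trib3 was 2.81-fold lower in shSnail (-1.49, SE 0.17, adjusted p = 0.0172). The chaperones Canx (-1.03, SE 0.16, adjusted p = 0.0239) and Hsp90b1 (-0.81, SE 0.17, adjusted p = 0.0432) were lower too. Ddit3, low in both silencings, was at 0.24 (SE 0.19, adjusted p = 0.435), and Atf4 at 0.70 (SE 0.30, adjusted p = 0.175). Xbp1 was at -0.49 (SE 0.17, adjusted p = 0.122), and it passed without background subtraction (-0.50, adjusted p = 0.0451) and with median centring (-0.91, adjusted p = 0.0193).

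With all 6 arrays and a dye term, Hsp90b1 (adjusted p = 0.116), Canx (0.0613) and Mthfd2 (0.0764) lost their calls; with either shSnail replicate left out, 0 of the 37 genes were called, and Mthfd2 (adjusted p = 0.0544) also lost its call without shLoxl2 replicate 1. Scan day and silencing cannot be told apart in this comparison.

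Other genes of the same pathways, in lists that share no gene with the 37, were read beside them. Of 42 other ER genes, 3 rose and 4 fell in shLoxl2, 7 rose and 5 fell in shSnail, and 5 were higher and 3 lower in shSnail than in shLoxl2. These are 16.7%, 28.6% and 19.0% of the list, beside 14.2%, 15.3% and 12.9% of all genes. In shLoxl2 the ER genes with the smallest p were Serp1, a guard of nascent membrane proteins (-1.57, adjusted p = 0.00214), Ero1a, an ER oxidase (-0.97, adjusted p = 0.00553), Mbtps1, the protease that cuts Atf6 (0.73, adjusted p = 0.0107), and the degradation gene Derl2 (0.81, adjusted p = 0.0148). In shSnail they were Sec61b of the translocation channel (1.33, adjusted p = 0.00550), the signal peptidase subunit Spcs1 (1.27, adjusted p = 0.00730), Ssr4 of the translocon-associated complex (1.08, adjusted p = 0.0100) and Sdf2l1 (1.32, adjusted p = 0.0124). Between the silencings they were Ssr4 (1.42, adjusted p = 0.0177), Spcs1 (1.23, adjusted p = 0.0178), the reductase Dnajc10 (-0.92, adjusted p = 0.0261) and Selenok (0.85, adjusted p = 0.0304).

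Of 47 other amino acid response genes, 4 rose and 10 fell in shLoxl2, 2 rose and 8 fell in shSnail, and 3 were higher and 4 lower in shSnail than in shLoxl2. These are 29.8%, 21.3% and 14.9% of the list, beside the same 14.2%, 15.3% and 12.9% of all genes; the last share is near that of all genes. The tRNA synthetases Farsb (-1.57, adjusted p = 0.00180), Nars (-1.53, adjusted p = 0.00182) and Lars (-0.96, adjusted p = 0.00669) fell in shLoxl2, and Ddit4, a brake on mTOR signalling, rose (0.93, adjusted p = 0.00689). In shSnail, Gadd45a (-1.53, adjusted p = 0.00402), the glutamine carrier Slc38a1 (-0.87, adjusted p = 0.0123) and Lars (-1.03, adjusted p = 0.0142) fell and Ddit4 rose (1.20, adjusted p = 0.00826). Between the silencings Slc38a1 (-1.51, adjusted p = 0.0164) and Slc38a2 (-1.63, adjusted p = 0.0316) were lower in shSnail, and Farsb (1.33, adjusted p = 0.0178) and Nars (1.16, adjusted p = 0.0234) were higher.

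Markers of the cell type moved beside these genes. Of 11 keratinocyte markers, 2 rose and 4 fell in shLoxl2, 1 rose and 4 fell in shSnail, and 1 was higher and 5 lower in shSnail than in shLoxl2. These are 54.5%, 45.5% and 54.5% of the markers, beside 14.2%, 15.3% and 12.9% of all genes. Of 7 fibroblast markers 1 fell in each silencing, of 5 leukocyte markers 1 rose in shLoxl2 and 0 passed in shSnail, and of 3 endothelial markers 0 passed in any comparison. Their part in the values of the stress genes was not tested, and in bulk RNA fewer cells of a type and less RNA per cell cannot be told apart.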

How the data were processed

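RNA from shLoxl2, shSnail and shGFP cells was read on 6 arrays of 2 dyes. The deposited scanner files hold spot intensity per channel and a log10 ratio of Cy5 over Cy3, made with Feature Extraction 9.5.1.1 per the file headers (6.1.1 per the submitters' processing notes). The authors' deposited value table holds log10 ratios; both of its shSnail columns match shSnail replicate 1 (100% of values within 0.006), so scanner files were used. In R 4.3.3 with limma 3.58.1, mean spot intensity was corrected with normexp (offset 50) and loess within arrays, with control and outlier spots at weight 0. Probes well above background in a channel on at least 2 arrays were tested (19752), with p-values adjusted (Benjamini-Hochberg) over all of them, and the brightest probe stood for a gene. shLoxl2 pairs were averaged and fitted with the shSnail arrays. shSnail was fitted on 6 arrays with a dye term, and the silencings were compared on 4 Cy5 arrays. In each fit of all 6 arrays the shLoxl2 arrays entered singly, although each dye-swapped pair was 1 replicate. The spread in those fits is thus partly that between arrays of the same replicate. The fits were tested on simulated data with the same dye effect on every array and independent noise. That test could not show what an unequal dye effect does. The bound for Chac1 used channel signals after loess and Aquantile normalization. The number of arrays limits precision. Named were genes past the threshold in any comparison and Atf4, Xbp1, Hspa5 and Ddit3, the others by count and range or, chosen after their values were seen, as steps or paralogs of these; of the other pathway genes, up to 4 per list and comparison by smallest p. Genes and lists were chosen with earlier results of these data known. The series text describes 3 hybridisations per condition, while the 6 arrays used here were 4 of shLoxl2 and 2 of shSnail. Alternatives covered background, normalization, filters, probes, dye handling, replicates and the value table.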

Additional observations from a re-analysis of the deposited data

Results flagged for a closer look

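For 6 genes every shLoxl2 array lay on 1 side of 0 and both shSnail arrays on the other, and the difference between the silencings (shSnail minus shLoxl2, log2, limma on the 4 Cy5 arrays) passed the threshold. The share of all genes that met both conditions was not counted. Of all genes, 12.9% passed in this difference, on whichever sides of 0 their arrays lay. The difference was 1.93 for Cth, 1.47 for Psph, 1.15 for Phgdh, 1.11 for Atf6 and 1.004 for Herpud1, each higher in shSnail. It was -1.66 for Chac1, which was higher in shLoxl2 and saturated in the silenced channel of both shLoxl2 arrays compared, so this value is no exact size. Fitted on all 6 arrays with a dye term, the differences are the same by design and only their spread is estimated anew. All 6 passed in that limma fit, with adjusted p from 0.0123 to 0.0489. The calls needed both shSnail replicates. Scan day and silencing cannot be told apart.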

How the results depend on the processing

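Of 26 gene results past the threshold, recomputed under 369 alternatives, 274 stayed past it in the same direction, 95 fell short of it and 0 reversed; of 10 results short of the threshold, 5 of 143 alternatives passed it. Counts of called genes are given for all genes, the 13 ER genes and the 24 Atf4-type genes. In shLoxl2 the main counts were 2643, 4 and 7. They were 731, 0 and 1 with the scanner software's log ratios, which keep only Cth. They were 0, 0 and 0 with the authors' value table, as in the other comparisons, where it leaves 1 shSnail array. The shLoxl2 pairs alone called 2 ER genes. With 1 replicate left out, the counts ran from 1669 to 2680, from 1 to 2 and from 4 to 7. In shSnail the main counts were 2840, 2 and 3. No background subtraction gave 4 ER and 6 Atf4-type genes, and a filter for both channels on every array gave 4 and 6. Scanner ratios called 1 ER gene, and median centring without loess called 6711, 5 and 9. With no dye correction they were 5874, 5 and 11, and with the dye effect scaled 4659, 4 and 8. Half-differences and half-sums equally weighted, an alternative chosen after seeing the data, gave 6 Atf4-type genes. With 1 replicate left out they ran from 2 to 5517, from 0 to 5 and from 0 to 8. In shSnail against shLoxl2 the main counts were 2401, 4 and 6. No background subtraction gave 10 Atf4-type genes, scanner ratios 2 ER genes, median centring 8798 of all genes, and all 6 arrays with a dye term 2 ER genes. With 1 replicate left out they ran from 39 to 4062, from 0 to 5 and from 0 to 8. The number in the title as a replicate block, where the numbers' deviations correlated at 0.208 over 2 pairs and no label pairs them, gave 2588, 4 and 9, and the 10 called genes kept their calls. The share of calls that were higher was 39.7% in shSnail, 22.4% with scanner ratios, where the median of all genes was -0.27, and 50.8% with median centring. Between the silencings it was 33.7%, 18.6% and 53.1%. Scan day as a block was not run, because no day held more than 1 group, and the slide of each array was not read. The cause of these changes was not tested.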
